A study of Mus musculus with 8 samples.

Results

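P300 binding was mapped by CUT&RUN in mouse embryonic stem cells that carry a deletion in Alkbh5, named del-cIDR, and in wild-type (WT) cells. The comparison rests on the 4 P300 libraries of the 8 libraries in the series, 2 per genotype, and on every P300 peak on chromosomes 1 to 19 and X, 6534 peaks in all. The other 4 libraries used an antibody to YY1. In CUT&RUN an antibody directs a nuclease to its target protein in isolated nuclei, and the DNA cut free is sequenced. Both genotypes are E14TG2a, an established embryonic stem cell line, and both were grown in serum with LIF and the kinase inhibitors PD0325901 and CHIR99021. In the title of the series IDR abbreviates intrinsically disordered region, while the letter c is nowhere spelled out. The labels do not say whether the del-cIDR cells are a single clone, or whether replicates came from separate cultures. The p-values below therefore reflect no more than the scatter of these 4 libraries, which may be of technical origin. Peak positions can check neither the deletion nor the cell type.

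P300, encoded by Ep300, is a lysine acetyltransferase that has no sequence-specific DNA binding of its own and is brought to enhancers and promoters by transcription factors. It acetylates histones and other proteins there, and in embryonic stem cells its peaks are widely used to mark active enhancers. ALKBH5 removes the methyl group of N6-methyladenosine from RNA. The series title asks how disordered regions of such demethylases bear on genomic targeting, and this comparison asks where P300 was called in cells with and without the deletion.

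The strongest P300 peaks were equally many in both genotypes, and the lists differed in their weaker peaks. Whether the signal of the strongest peaks was specific to P300 was not tested. Each peak carries a −log10 q value from the authors' peak caller, in which a higher value is a stronger peak. At a −log10 q of 10 or more, the del-cIDR lists held 236 and 255 peaks in replicates 1 and 2 and the WT lists 234 and 257, a mean of 245.5 in each genotype (SD 13.4 in del-cIDR and 16.3 in WT, n = 2). Between 5 and 10 there were 282 and 317 peaks in del-cIDR and 335 and 535 in WT. Below 3 there were 394 and 367 in del-cIDR and 447 and 870 in WT. WT replicate 2 was the only list that stood apart, and it did so in every class below 10.

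Over whole lists, del-cIDR replicates 1 and 2 held 1322 and 1286 peaks and WT replicates 1 and 2 held 1452 and 2474. Both del-cIDR lists were shorter than both WT lists, with means of 1304 ± 25.5 and 1963 ± 723 (SD, n = 2). On the log2 scale the del-cIDR mean was lower by −0.54, with p = 0.333 when the genotype labels were permuted in all 6 ways (two-sided exact test, n = 2 per genotype). That is the smallest p this design allows, so it cannot pass 0.05. When only peaks whose −log10 q reached 5 were counted, the genotypes overlapped, with 518 and 572 peaks in del-cIDR and 569 and 792 in WT, and the log2 difference was −0.30 (exact permutation p = 0.667, n = 2 per genotype). Over whole lists the difference was −0.16 without WT replicate 2 and −0.92 without WT replicate 1. The genotype means differed by 659 peaks, less than the gap between the WT replicates.

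Most peaks rested on few reads. The deposited fold enrichment and −log10 p of a peak together fix a whole number of reads at its summit and a background, if 1 was added to both reads and background before the fold was formed and p is the upper tail of a Poisson distribution. Both values were met within 0.001 for every peak with a −log10 p under 50 in 3 libraries and for 2401 of 2402 in WT replicate 2. The median peak had 12 and 13 reads at its summit in del-cIDR replicates 1 and 2 and 12 and 11 in WT replicates 1 and 2. A count of 12 has an exact 95% Poisson interval of 6.20 to 21.0, which covers counting error only. The fewest reads at a called summit were 7 in 3 libraries and 6 in WT replicate 2. The lowest background of a library was 0.876 and 1.01 reads in del-cIDR and 0.776 and 0.773 in WT. Both WT backgrounds were thus below both del-cIDR backgrounds. They were nearly equal in WT replicates 1 and 2, whose lists held 1452 and 2474 peaks, against 1322 and 1286 in del-cIDR. The part of background in the list length was not tested.

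P300 peaks were narrow in both genotypes. The shortest peaks were 122 and 123 bp in del-cIDR and 122 and 120 bp in WT, and the median widths 160 and 161 bp against 161 and 164 bp. The median was 160.5 ± 0.707 bp in del-cIDR and 162.5 ± 2.12 bp in WT (SD, n = 2), a difference of −2 bp with p = 0.667 in the exact permutation test. The groups overlapped at the median. In the upper part of the distribution they did not, with 75th percentiles of 202 and 203 bp in del-cIDR and 207 and 208 bp in WT, and 90th percentiles of 274.9 and 286.5 bp against 297 and 289.7 bp (exact permutation p = 0.333 for both, n = 2 per genotype). Stronger peaks were wider in every list. In del-cIDR replicate 1 the median width fell from 182 bp in the strongest quartile of the list to 149 bp in the weakest, and in WT replicate 2 from 199 to 147 bp. Among peaks with a −log10 q of at least 5 the median width was 174.75 bp in del-cIDR and 186 bp in WT (exact permutation p = 0.333, n = 2 per genotype). Among the 1286 strongest peaks of each list it was 161 and 172 bp (exact permutation p = 0.333). That limit keeps the whole list of del-cIDR replicate 2 and drops the most peaks from WT replicate 2. The dropped peaks are the weakest, and weaker peaks were narrower.

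Peaks wider than 500 bp were rare and took the same share of each list, 1.74% and 1.63% in del-cIDR and 1.65% and 1.74% in WT. The widest P300 region lay on chromosome 17 from 40153888 to 40158195. It was covered by 2 long peaks in each del-cIDR library, the longer of them 3013 bp in replicate 1 and 2284 bp in replicate 2. The WT libraries broke it into 5 and 4 peaks, the longest 1116 and 1441 bp. The bases under peaks there were 4067 and 3910 in del-cIDR and 3089 and 2863 in WT, so the genotypes did not overlap, at folds of only 2.38 to 2.76. The neighbouring region, from 40158383 to 40159709, was a single peak of 1250 to 1327 bp in each of the 4 libraries. These regions were singled out after their values were seen.

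Few P300 regions recurred in all libraries. Peaks that shared at least 1 bp were merged across the 4 lists into 4500 regions, of which 281 (6.24%) were held by all 4 libraries, 276 by 3, 601 by 2 and 3342 by 1. WT replicate 2 alone held 1526 regions, WT replicate 1 alone 660, del-cIDR replicate 1 alone 614 and del-cIDR replicate 2 alone 542. Absence from a list means only that the authors' threshold was not reached there, which does not show that P300 was absent. Regions of a single library had a median of 10 to 11 summit reads, and those of all 4 libraries 18 to 20 among the regions whose reads could be solved. The median region width rose with recurrence, from 152 bp in 1 library to 214, 245 and 293 bp in 2, 3 and 4.

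**Figure D1:**
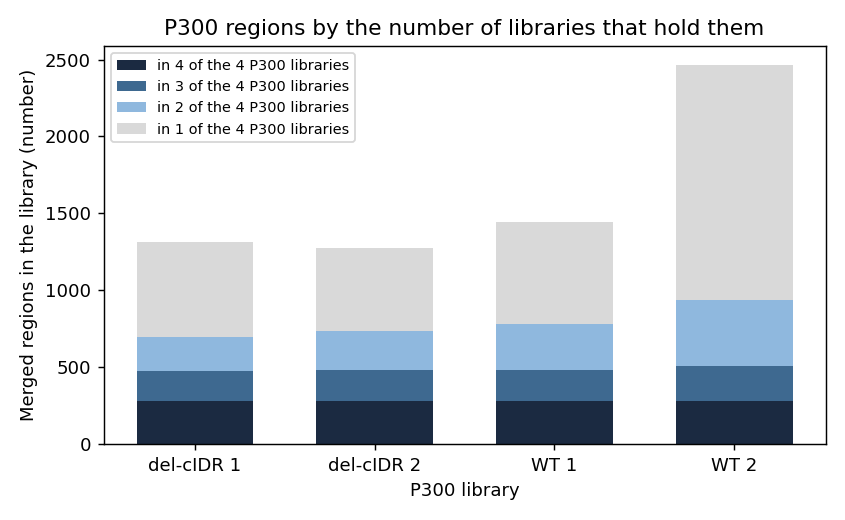
Number of merged P300 regions in each library (vertical axis), divided by how many of the 4 P300 libraries hold the region. The dark block of 281 regions held by all 4 is the same in every bar by definition, and the light block of single-library regions is 1526 in WT 2 and 542 to 660 in the other libraries.

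Recurrence followed the strength of the peak. Of the strongest quartile of the peaks in del-cIDR replicate 1, 80.1% (Wilson 95% interval 75.4 to 84.0) were matched in del-cIDR replicate 2, 75.5% (70.6 to 79.9) in WT replicate 1 and 78.9% (74.1 to 82.9) in WT replicate 2. For del-cIDR replicate 2 the shares were 78.3% in del-cIDR replicate 1, 78.3% in WT replicate 1 and 81.1% in WT replicate 2. For these lists the interval for the replicate of the same genotype overlapped those for the other genotype. WT replicate 1 was matched at 80.7% (76.3 to 84.4) in WT replicate 2 and at 74.1% (69.4 to 78.3) and 75.5% (70.8 to 79.6) in the del-cIDR lists, with a longer list in WT replicate 2. WT replicate 2 was matched at 59.0% in WT replicate 1 and at 56.1% and 58.6% in the del-cIDR lists. In the weakest quartile the matched share was 8.76% for del-cIDR replicate 1 in del-cIDR replicate 2, 8.07% in the reverse direction, 9.97% for del-cIDR replicate 1 in WT replicate 1, and 18.7% in WT replicate 2.

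**Figure D2:**
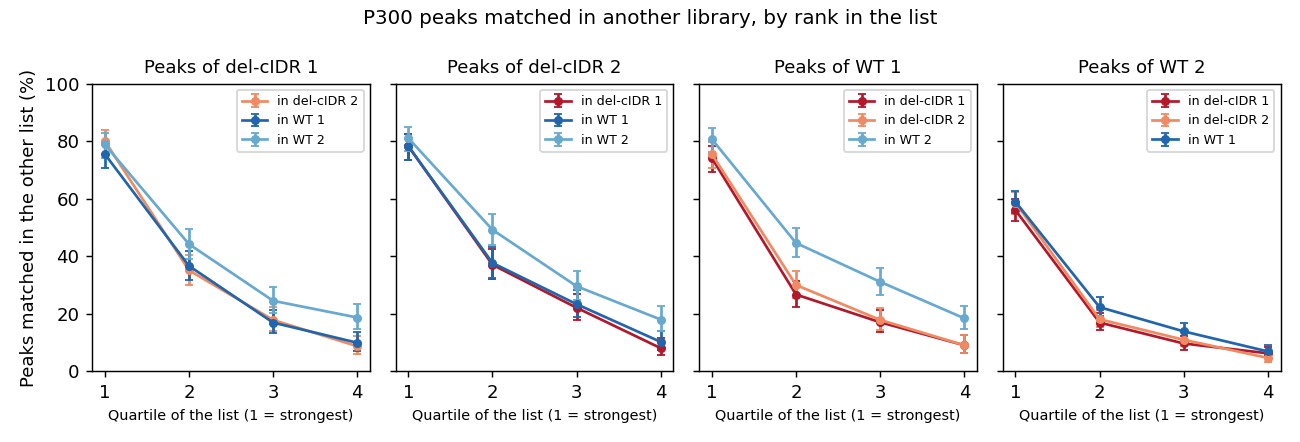
Share of the peaks of each P300 library (panels) that share at least 1 bp with a peak of another library (colours), by quartile of the list ranked by −log10 q, with Wilson 95% intervals for counting error. Matching falls from 56.1% to 81.1% in the strongest quartile to 4.68% to 18.7% in the weakest.

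Regions called in both libraries of 1 genotype and in neither of the other were of middling strength. There were 62 del-cIDR-only regions (1.38% of the 4500) and 185 WT-only regions (4.11%), and the WT lists were longer. With each list limited to its 1286 strongest peaks the counts were 80 and 106 of 3376 merged regions. At a −log10 q of at least 5 they were 31 and 52 of 1372. The mixed pairs, which are no genotype class, give counts to set beside these. For them, 129 regions were held by del-cIDR replicate 2 and WT replicate 2 alone, and 114 by del-cIDR replicate 1 and WT replicate 2. Another 63 were held by del-cIDR replicate 2 and WT replicate 1, and 48 by both replicates numbered 1. The 62 del-cIDR-only regions lay inside this range and the 185 WT-only regions above it. The del-cIDR-only regions lay at a median percentile of 56.5 and 50.4 in the del-cIDR lists, and the WT-only regions at 49.8 and 58.8 in the WT lists. Regions of all 4 libraries lay at 86.8, 87.3, 88.2 and 93.4. Both classes had a median of 13 summit reads, close to the reads of a median peak.

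Of the del-cIDR-only class, chromosome 14 held the leading region, between 19384083 and 19384352. It had 21 summit reads (exact Poisson 95% interval 13.0 to 32.1) in replicate 1 and 18 (10.7 to 28.4) in replicate 2. The second, on chromosome 14 from 18434190 to 18434357, had 16 and 22 reads. Next came chromosome 17 from 23095378 to 23095507, with 20 reads in each replicate, and chromosome 2 from 181654709 to 181654875, with 13 and 27. The fifth was on chromosome 14 from 19437236 to 19437415, with 16 and 19 reads. Chromosome 14 thus carried 3 of the leading 5, each in a 1 Mb window crowded with P300 peaks in every library. It held 11 of all 62 del-cIDR-only regions (17.7%) and 10 of the 185 WT-only regions (5.41%), beside 6.67% of all 4500 regions.

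Among WT-only regions, one on chromosome 3, between 3002017 and 3002175, came first. It had 73 reads (57.2 to 91.8) in WT replicate 2, the most solved for any region of either class. Its fold in WT replicate 1 was 10.0, and its reads were not solved there because its −log10 p exceeded 50. The others had fewer reads. There were 26 and 29 in WT replicates 1 and 2 on chromosome 11 from 3087382 to 3087605, and 16 and 22 on chromosome 11 from 31872599 to 31872822. On chromosome 10 from 22024817 to 22025037 there were 19 and 21, and from 51339958 to 51340300 there were 19 in each. Only the first of these 5 stood well above the others in reads. Sequences and genes of the regions were not analysed here, since the reference tables at hand are on a build other than GRCm39.

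P300 peaks lay in clusters. In del-cIDR replicates 1 and 2, 26.1% (Wilson 95% interval 23.8 to 28.5) and 29.9% (27.4 to 32.4) of peaks had another peak of the same list within 10 kb, and in WT replicates 1 and 2, 25.3% (23.1 to 27.6) and 22.8% (21.1 to 24.5). The means were 28.0% ± 2.66 and 24.0% ± 1.78 (SD, n = 2), a difference of 3.96 percentage points with both del-cIDR values above both WT values (exact permutation p = 0.333, n = 2 per genotype, the smallest possible). The direction depended on scale and place. Keeping only peaks whose −log10 q reached 5 gave 7.87 points, with means of 44.4% and 36.5%. At 1 kb it was −0.72 points, and with lists of equal length it was 1.24 points. It was 2.08 points without del-cIDR replicate 2.

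Outside the crowded windows the order of the genotypes turned. In 13 windows of 1 Mb every P300 library had at least 10 peaks, and without these windows the share of peaks with a neighbour within 10 kb was 12.1% and 13.0% in del-cIDR and 13.4% and 14.4% in WT, a difference of −1.35 points (exact permutation p = 0.333, n = 2 per genotype). The windows held 287 and 327 peaks in del-cIDR and 268 and 327 in WT, and 3 of them had more peaks in both del-cIDR libraries than in either WT library, on chromosome 8 from 20000001 to 21000000 (54 and 55 against 50 and 51), on chromosome 8 from 21000001 to 22000000 (33 and 33 against 28 and 31), and on chromosome 14 from 19000001 to 20000000 (15 and 14 against 13 and 13). In the other 10 windows the groups overlapped. Of the 62 del-cIDR-only regions 18 (29.0%) lay in these windows, and of the 185 WT-only regions 12 (6.49%), beside 587 of all 4500 regions (13.0%). The windows were chosen by a count of P300 peaks in all 4 libraries.

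**Figure D3:**
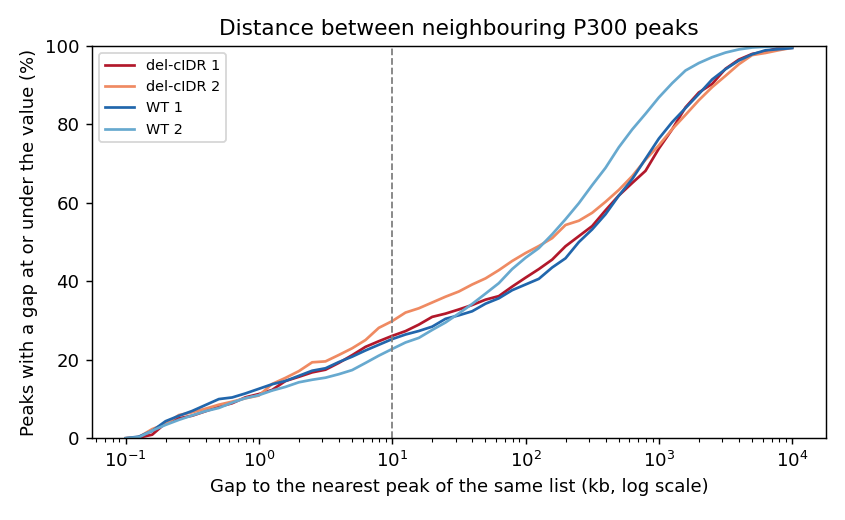
Share of P300 peaks (vertical axis) whose nearest neighbour in the same list lies at or within the distance on the horizontal axis (kb, log scale), for each library, with a dashed line at 10 kb. At 10 kb the lines lie between 22.8% and 29.9% with del-cIDR 2 highest, and at long distances WT 2, the longest list, rises first.

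The run with the most peaks was the same in all 4 libraries. Joining peaks with gaps of at most 10 kb, each library had 22 peaks in a run on chromosome 9 that began at 3000017 or 3000018 and ended between 3038270 and 3038281. Mouse chromosomes have their centromere at the low-coordinate end, and the assembled sequence begins near the start of this run. The 4 lists merged there into 22 regions, of which 20 were held by all libraries. The median gap between its peaks was 0.692 and 0.682 kb in del-cIDR and 0.681 and 0.998 kb in WT. Its median −log10 q was 228.6 and 260.3 in del-cIDR and 262.9 and 210.2 in WT, against 4.25, 4.36, 3.98 and 3.69 for the whole lists. A shorter run on chromosome 14, from about 3050788 to 3053971, singled out after its values were seen, was denser and stronger. It had 6 peaks in every library, with median gaps of 0.185 and 0.186 kb in del-cIDR and 0.184 and 0.183 kb in WT, and a median −log10 q of 610.1 and 700.3 against 703.3 and 747.3.

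Runs on chromosome 8 varied more from list to list. The longest there was a run of 21 peaks over 75.4 kb in del-cIDR replicate 2, from 20000120 to 20075564. In del-cIDR replicate 1 a run over part of this stretch had 8 peaks (20045931 to 20069982) and another had 5 (20016368 to 20033244). The only run of at least 5 peaks there had 9 in WT replicate 1 (20045922 to 20075569) and 8 in WT replicate 2 (20045919 to 20075581). Farther along the chromosome, the run near 21121680 had 6 peaks in del-cIDR replicate 1, the fewest, and 14 in del-cIDR replicate 2, the most, with 12 and 9 in WT replicates 1 and 2. Runs of at least 5 peaks numbered 16 and 17 in del-cIDR and 14 and 16 in WT, with 118 and 151 peaks in del-cIDR and 121 and 122 in WT. Only del-cIDR replicate 2 stood apart in the number of peaks in such runs.

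Peaks were spread over all 20 chromosomes, and the shares of the genotypes separated in both directions. Chromosome 4 held 9.83% and 12.4% of the del-cIDR peaks and 8.47% and 8.57% of the WT peaks, a mean of 11.1% ± 1.79 against 8.52% ± 0.0693 (SD, n = 2). Chromosome 14 held 8.17% and 9.95% against 7.30% and 6.63%. The X chromosome held 2.80% and 2.41% against 1.58% and 1.46%, or 37 and 31 peaks against 23 and 36. On these 3 of 20 chromosomes (15.0%) both del-cIDR shares lay above both WT shares. On 8 of 20 (40.0%), chromosomes 1, 2, 3, 5, 6, 10, 12 and 15, both lay below. The lower shares reached 4.01% and 3.81% against 5.30% and 5.74% on chromosome 1. With exchangeable labels, full separation in either direction has a probability of 0.33 for a chromosome. That value covers both directions together. Separation in a given direction, as counted in the 3 or in the 8 chromosomes, is less probable. The shares of a library add to a fixed total and so depend on each other, which leaves no test over chromosomes.

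Chromosome 4 and X kept their order without the crowded windows, and chromosome 14 did not. Outside the windows chromosome 4 held 7.73% and 10.2% of the del-cIDR peaks and 6.33% and 6.61% of the WT peaks, and X, which had no such window, 3.57% and 3.23% against 1.94% and 1.68%. Chromosome 14 held 3.96% and 5.84% against 4.14% and 4.47%, with overlap. Chromosome 8, the chromosome with the largest share in 3 of the 4 lists, held 11.1% and 11.5% of the del-cIDR peaks and 11.2% and 9.46% of the WT peaks over its whole length. Outside its 2 windows it held 5.80% and 6.26% against 7.09% and 7.08%, with both del-cIDR shares lower. X also had 4 of the 62 del-cIDR-only regions and 0 of the 185 WT-only regions, beside 74 of all 4500 regions (1.64%). These 4 had between 7 and 23 summit reads per library. The strongest, from 125601687 to 125601849, had 20 and 23 reads in del-cIDR replicates 1 and 2.

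Chromosome profiles were closest within the WT pair, and the del-cIDR pair lay inside the range of pairs across genotypes. The summed difference in chromosome shares between 2 libraries, divided so that 100% would mean no chromosome in common, was 6.79% between the del-cIDR libraries and 4.73% between the WT libraries. Between genotypes it was 5.88% (both replicates 1), 8.05%, 9.43% and 11.6% (both replicates 2). The del-cIDR pair was thus closer than 3 of the 4 pairs across genotypes.

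**Figure D4:**
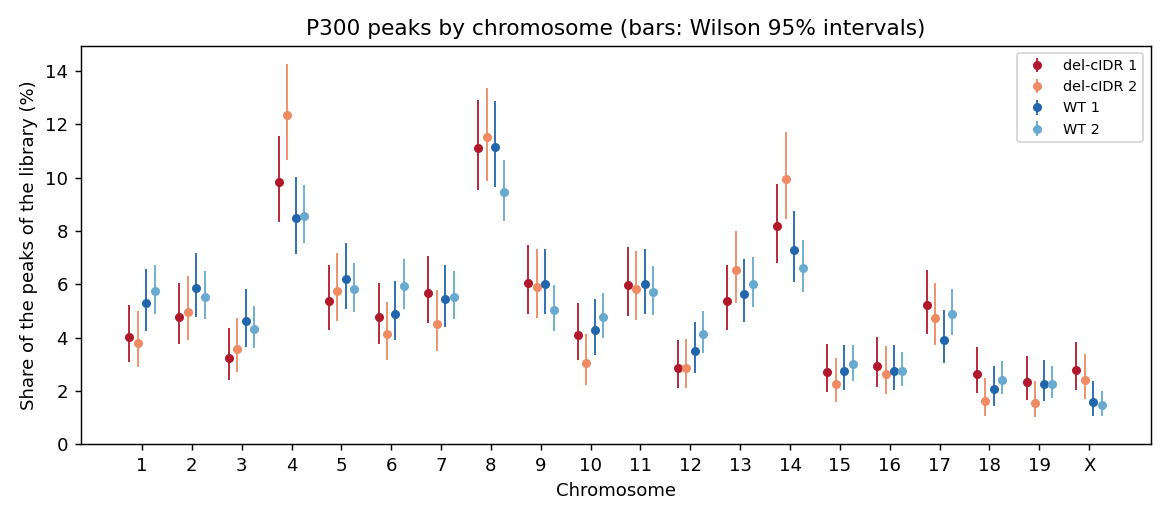
Share of the peaks of each P300 library (vertical axis, %) on each chromosome (horizontal axis), with Wilson 95% intervals for counting error as bars. The del-cIDR points lie above the WT points on chromosomes 4, 14 and X and below them on 8 of the 20 chromosomes. Chromosome 8 holds 9.46% to 11.5% of every list.

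The order of strength among recurrent regions was similar in every library. The 281 regions held by all 4 libraries were ranked by −log10 q within each, rank 1 being the strongest, so that all rankings have the same length. Spearman's rho across these regions was 0.891 for the del-cIDR pair and 0.871 for the WT pair, and lay from 0.868 to 0.876 across genotypes. Regions are not replicates, the rankings share the local background of a position, and rho is given as a description. The same 20 regions made up the top 20 of every library, and 45 regions were in the top 50 of all 4. Over the larger sets of regions that a pair of libraries shared, rho was 0.825 for the 461 regions of the del-cIDR pair, 0.725 for the 624 of the WT pair and 0.764 to 0.813 between genotypes.

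The leading regions had similar fold enrichments in every library. Whether their signal was specific to P300 was not tested, and use of a control library in peak calling is not stated. Rank 1 everywhere was a stretch of chromosome 2 (98496597 to 98497677), enriched 19.6-fold and 17.7-fold in del-cIDR replicates 1 and 2 and 19.2 and 20.2 in WT replicates 1 and 2. On chromosome 9, the region between 35216512 and 35216887 reached 55.2-fold and 54.6-fold against 55.0-fold and 55.8-fold, and chromosome 6 from 103626012 to 103626254 had 72.4 and 71.1 against 72.2 and 73.0. They exchanged ranks 2 and 3 in del-cIDR replicate 1 only. Rank 4 was chromosome 12 from 3159872 to 3160121 in all libraries. Ranks 5 to 9 were taken by 5 regions of the run on chromosome 9, between 3000017 and 3024632. The tenth by mean rank was chromosome 14 from 3051760 to 3051922, enriched 14.7-fold and 15.4-fold in del-cIDR and 14.3-fold and 13.4-fold in WT. In rank, the genotypes separated at 1 of these 10 regions, chromosome 9 from 3024036 to 3024632, which was at rank 6 in both del-cIDR libraries and 7 in both WT libraries.

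Summits lay close together, which the choice of regions with overlapping narrow peaks makes likely. In the 281 regions the strongest summits of a pair of libraries lay a median of 14 bp apart in del-cIDR, 11 bp in WT and 12 to 14 bp between genotypes. Between 75.4% and 77.9% of summits lay within 50 bp of each other in the 6 pairs of libraries.

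Genotypes separated in rank at 114 of the 281 regions (40.6%). With exchangeable labels, full separation of 2 against 2 libraries, in either direction, has a probability of 0.33 for a region. The count alone therefore does not show a genotype effect. In 52 regions (18.5%) both del-cIDR ranks were nearer the top than both WT ranks, and in 62 (22.1%) the reverse. The median distance of a region between 2 libraries was 14 ranks for the del-cIDR pair and 18 for the WT pair. Across genotypes it was 19 and 19 ranks for del-cIDR replicate 2 and 22 and 23 for del-cIDR replicate 1, somewhat larger than within a genotype. In 12 regions the nearest ranks of the genotypes were over 20 ranks apart with del-cIDR nearer the top, and in 23 with WT nearer the top. With a distance of at least 40 ranks these numbers were 7 and 6.

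**Figure D5:**
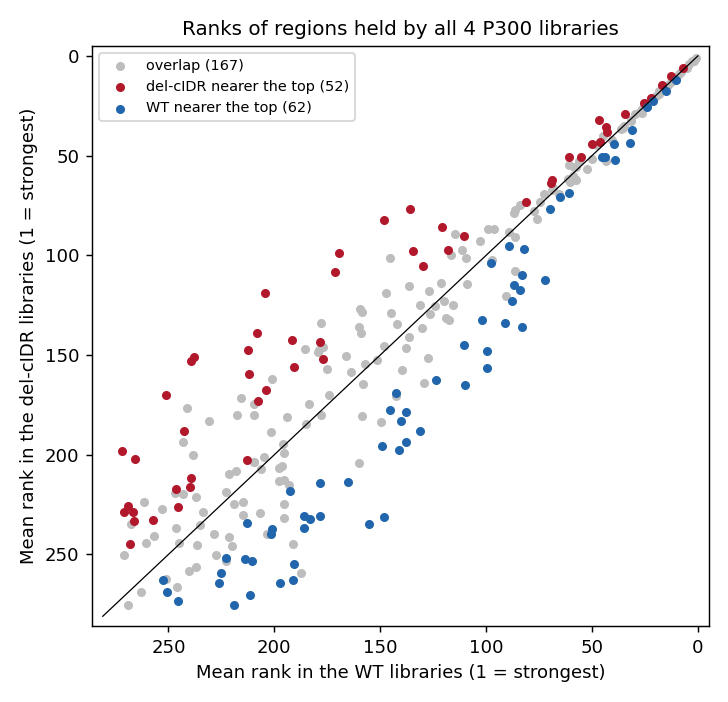
Mean rank of each of the 281 regions held by all P300 libraries, in WT (horizontal axis) and del-cIDR (vertical axis), with rank 1 at the upper right and a line of equal rank. Red points are the 52 regions whose del-cIDR ranks are both nearer the top, blue points the 62 with WT nearer the top, and grey points the 167 whose ranks overlap, with the spread growing toward weak regions.

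The largest rank distances in favour of del-cIDR were on chromosomes 8 and 17. The region on chromosome 8 from 20484572 to 20484842 ranked 170 in both del-cIDR libraries and 276 and 226 in WT replicates 1 and 2, with 24 and 26 summit reads against 14 and 19. On chromosome 17 from 13526214 to 13526377 the ranks were 82 and 83 against 157 and 139. This region had the most reads of the leading ones, 45 (32.8 to 60.2) and 47 (34.5 to 62.5) in del-cIDR and 25 (16.2 to 36.9) and 28 (18.6 to 40.5) in WT, with folds of 9.64 and 9.11 against 6.56 and 7.20. The next were chromosome 14 from 16059903 to 16060078, with 16 and 19 reads against 12 and 8, and chromosome 1 from 7195210 to 7195410, with 22 and 23 against 17 and 19. The fifth was chromosome 8 from 20721129 to 20721354, with 20 and 26 against 15 and 14. In all 5 regions both del-cIDR read counts were above both WT counts, as their selection by rank makes likely, and the Poisson intervals of del-cIDR and WT libraries overlapped in each.

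The largest rank distances in favour of WT were on chromosomes 8 and 4. The region on chromosome 8 from 62417879 to 62418192 ranked 213 and 256 in del-cIDR and 150.5 and 160 in WT, with 15 and 14 summit reads in del-cIDR and 22 in each WT library. On chromosome 4 from 146494259 to 146494611 there were 12 and 15 reads in del-cIDR and 20 and 18 in WT. Another 3 were on chromosome 8. From 41100686 to 41100988 there were 16 and 14 reads against 24 and 22, and from 78824900 to 78825286 there were 14 and 13 against 17 and 21. The most reads were found from 20173479 to 20173744, with 24 (15.4 to 35.7) and 27 (17.8 to 39.3) in del-cIDR and 36 (25.2 to 49.8) and 43 (31.1 to 57.9) in WT. Chromosome 8 thus held 4 of these 5 regions and 2 of the 5 in the opposite direction.

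On chromosome 8 outside its crowded windows, WT ranks were nearer the top in 9 of 17 regions and del-cIDR ranks in 0. In the other 8 the ranks overlapped. Some of the 17, from 19753083 to 19835110, lay just before the crowded window that begins at 20000001. The narrowest separation was 74 and 80 in del-cIDR against 73 and 67 in WT, from 19834562 to 19835110. The widest was 213 and 256 against 150.5 and 160, from 62417879 to 62418192. Over the whole length of chromosome 8, windows included, del-cIDR was nearer the top in 7 of 55 regions and WT in 18. On chromosome 1 the order was the opposite, with del-cIDR nearer the top in 5 of 6 regions and WT in 0. Both chromosomes were singled out after their values were seen. Over all regions outside the windows the orders were equally frequent, at 36 and 36 of 173. The peak shares moved the same way as these ranks on chromosome 8 outside the windows and the opposite way on chromosome 1, where the del-cIDR share was lower.

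Overlap with YY1 peaks rose with the recurrence of P300 regions. YY1, a zinc-finger transcription factor, was mapped in the same cell line with the other antibody, and its lists played no part in the choice of P300 regions. Peaks of WT replicate 1 for YY1, the shortest YY1 list on these chromosomes with 3519 peaks, overlapped 7.09% (Wilson 95% interval 6.27 to 8.01) of the P300 regions held by 1 library, 12.6% of those held by 2, 17.4% of those held by 3 and 41.3% (35.7 to 47.1) of those held by 4. With the longest YY1 list, del-cIDR replicate 2 with 15517 peaks, the shares were 24.0%, 29.6%, 38.4% and 47.7%. Of the 62 del-cIDR-only P300 regions, 24.2% and 33.9% overlapped the YY1 lists of del-cIDR cells and 17.7% and 22.6% those of WT cells. Of the 185 WT-only regions the shares were 18.4% and 28.6%, and 9.73% and 15.7%. For both classes the order of the YY1 lists followed their lengths. Recurrent regions were also wider, as given above, and stronger. The median −log10 q was 13.0 to 15.1 for regions held by 4 libraries and 3.02 to 3.08 for those held by 1. Of the 281 held by 4, 108 lay in the crowded windows, beside 587 of all 4500 regions (13.0%). The parts of width, strength and place in the overlap were not tested, nor whether the signal in overlapping regions was specific to either antibody.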

How the data were processed

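The authors deposited 1 MACS2 narrowPeak list per library, so replicates were not pooled. The submitters' processing notes list GRCm39 as the build and, as tools, MACS2, BWA, fastp, Picard, featureCounts and SAMtools, without saying what each did. Use of a control library in peak calling is not stated in the sources at hand. The deposited fold enrichment is a ratio of summit reads to local background, and the deposited −log10 p and −log10 q are the peak caller's. They served to describe, order and filter the peaks of 1 list at a time. The summit position is counted from the peak start. Positions are on GRCm39, counted from 1. Read totals are not in the files.

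Peaks on Y, mitochondrial and unplaced sequences and on a sequence named dm, 5.25% to 10.0% of a list, were left out. Regions were merged at 1 bp or more. A region's strength in a library was that of its strongest peak. Library values were compared by two-sided exact permutation over 6 assignments. Intervals of shares are Wilson 95%, those of reads exact Poisson, for counting error only. Named regions were, by rule, the 10 best by mean rank, the 5 with the largest rank distance in each direction, the 5 best-ranked of each genotype-only class and the runs with the most peaks. Genes could not be named. Members, rules and lists were chosen with earlier results of these data known. Alternatives were a −log10 q of at least 5, lists of 1286 peaks, other distances and overlaps, ranking by fold, no crowded windows, each library left out, and a replicate block. The functions were tested on simulated lists. Python 3.11.15, NumPy 2.4.6, pandas 2.3.3 and SciPy 1.17.1 were used.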

Additional observations from a re-analysis of the deposited data

Results flagged for a closer look

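Peaks on the sequence named dm, which no comparison used and the labels do not describe, numbered 9 and 37 in del-cIDR replicates 1 and 2 and 27 and 21 in WT replicates 1 and 2. They drew attention as signal outside the chromosomes compared. The genotypes overlapped, with the fewest and the most in the del-cIDR libraries.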

How the results depend on the processing

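Peak number stayed lower in del-cIDR and the median width stayed lower under each alternative run for them, though the genotypes' peak numbers overlapped once a −log10 q of 5 was required (log2 −0.30). With 1 library left out the log2 differences were −0.92 to −0.16 and the width differences −3.5 to −0.5 bp. The difference in peaks with a neighbour within 10 kb was 2.08 to 5.84 points when 1 library was left out. It was 7.87 points with that requirement, and turned to −0.72 points at 1 kb, to −1.35 without the crowded windows, and to −1.46 outside the windows at equal list length, an alternative chosen after seeing the data, and the cause was not tested. Chromosomes with lower del-cIDR shares numbered 5 at equal length, and those with higher shares 5 without the windows. With 1 library left out there were 4 to 9 higher and 8 to 12 lower. At a −log10 q of at least 5, 34 and 41 of 193 shared regions separated in rank toward del-cIDR and WT. Of 1372 merged regions, 31 were then del-cIDR-only and 52 WT-only. At equal length WT-only regions numbered 106 of 3376. Leaving out 1 library makes separation easier by construction. It gave 102 to 120 regions toward del-cIDR and 114 to 129 toward WT, of 322 to 364 shared regions. It gave 107 to 679 del-cIDR-only and 259 to 1711 WT-only regions, of 2992 to 3968 merged regions. A replicate block, which takes differences within a replicate number, left the means at −0.54 (log2 peak number), −2 bp (width) and 3.96 points (neighbours), each with an exact sign-flip p of 0.5, the smallest possible. The replicate differences of both genotypes had a correlation of −0.047 over the 281 ranks and −0.31 over the 20 chromosome shares. With only 1 such difference per genotype, this cannot show whether libraries of equal number shared a batch. The few reads at a summit limit the precision of single regions, and read totals are unknown.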
